A study of Mus musculus with 4 samples.

Results

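The CA2-3 pyramidal layer spots were 140 capture spots of a Visium spatial transcriptomic experiment on mouse brain, 35 in each of 4 coronal sections, out of 13452 spots kept (1.04%). A Visium spot is a small printed area of the slide whose barcode records where a transcript was caught, so each spot held several cells of different types or parts of them. The spots were chosen from their own counts, by genes that mark hippocampal pyramidal cells and then CA3. Each kept spot was scored by the mean over a set of genes of the natural logarithm of 1 plus the gene's unique molecular identifiers (UMIs, counted transcripts) per 10000 UMIs of the spot. In each section the 270 spots highest for Cabp7, Hpca and Wipf3 became hippocampal candidates, and the 35 of these highest for Grik4, Ptgs2 and Iyd became the CA2-3 spots. The score of the last spot chosen and of the next one left out was 0.426 against 0.425 in MF section 1, 0.356 against 0.350 in MF section 2, 0.403 against 0.403 in HF section 1 and 0.455 against 0.451 in HF section 2, so the limit did not fall in a gap.

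The brains came from male wild-type C57BL/6J offspring at postnatal day 21. Their mothers, 8 to 12 weeks old, ate a defined diet with folic acid (FA) at 2 mg/kg (the MF group, 2 sections) or 20 mg/kg (the HF group, 2 sections) from 2 weeks before mating until the end of lactation, so the offspring met the diet before birth and through the mother's milk. The methods call the 2 sections of a diet biological replicates, and the dam or litter of each pup was not given in the sources used here. With 2 sections against 2, an exact permutation test cannot give a p-value below 0.3333, and the p-values below rest on the spread that edgeR estimated over all genes. Values of the 4 sections are given in the order MF section 1, MF section 2, HF section 1 and HF section 2, as the UMIs of a gene summed over the named spots of a section and scaled to a total of 1000000 (CPM).

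Pyramidal cells of CA3 receive the mossy fibres of dentate gyrus (DG) granule cells, excite each other through recurrent collaterals and send the Schaffer collaterals to CA1. The small field CA2 lies between CA3 and CA1 and is known for its part in social memory. Grik4 encodes a high-affinity kainate receptor subunit of the mossy fibre synapse, Ptgs2 the inducible cyclooxygenase, which neurons also switch on with activity, and Iyd an iodotyrosine deiodinase best known from the thyroid.

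The sections held 34983708 to 90098381 UMIs in all, the highest in MF section 1, and the CA2-3 spots together 631336 to 1693769, again highest in MF section 1. The median CA2-3 spot held 51416, 22499, 17868 and 24201 UMIs, which was 1.86 to 2.18 times the median of its section. The sections also differed in Pmch, the melanin-concentrating hormone precursor of lateral hypothalamic neurons. It was at 700.1, 505, 326 and 0.721 CPM in the spots outside CA2-3, so HF section 2 stood apart. The plane of each section was not given in the labels, and its part in this difference was not tested.

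Among the genes of the rule, Grik4 was at 171, 192, 207 and 213 CPM in the CA2-3 spots and at 32.8 to 36.6 CPM in the other kept spots of the sections. Grik4 had at least 1 UMI in all 35 spots of each section. Ptgs2 was at 72, 60.3, 98.2 and 109 CPM against 5.19 to 7.57, with a UMI in 35, 23, 27 and 30 spots, and was higher in both HF sections than in both MF sections. Iyd was at 31.3, 21.3, 23.8 and 28.8 CPM against 1.63 to 4.16 and had a UMI in 22, 12, 11 and 18 spots, so most of its score came from a few UMIs per spot. The candidate genes were high as well, and Hpca, which encodes the neuronal calcium sensor hippocalcin, reached 4109.8, 3825, 3998 and 5084 CPM. These values chose the spots and are given as a description without a test.

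Genes of CA3 that the rule did not use were high in the same spots. The summed CPM of 9 CA3 genes was 3694, 3251, 3388 and 3879 in the CA2-3 spots, 949 to 1104 in the other kept spots, 1096 to 1343 in 140 spots chosen in the same way for CA1 (Spink8, Wfs1, Fibcd1) and 659.8 to 921 in 140 chosen for DG (Dsp, Prox1, C1ql2). The log2 ratio of the sums to the other spots was 1.78 ± 0.17 (SD, n = 4 sections). Of the 9 genes, 7 were higher in the CA2-3 spots in 4 of 4 sections, where 12.4% of all genes with a UMI in these spots were. Among genes with a mean of at least 20 CPM in these spots the share was 21.5%. The share of all genes lower in every section was not counted, so counts of lower genes in this and other lists are descriptions. Chgb, which encodes the granule protein secretogranin I, was at 2190.4, 1891, 1964 and 2348 CPM against 423 to 511. Bok, a BCL2 family member, was at 152, 137, 131 and 171 CPM against 32.1 to 44, and Nectin3, an adhesion molecule of the mossy fibre contact, at 136, 137, 129.9 and 160.0 CPM against 36.8 to 44.8. For these 3 genes the lowest CA2-3 section lay above the highest section of the other spots. Dkk3, a member of the Dickkopf family, was at 433, 372, 389.6 and 453 CPM in the CA2-3 spots and at 482, 449.7, 345 and 463 CPM in the CA1 spots, higher there in 3 of 4 sections. Coch went the other way, at 7.08, 12.6, 12.7 and 11.5 CPM against 18.7 to 25.3, and Fmo1 was higher in some sections and lower in others.

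Markers of CA2 were mixed. Of 11 CA2 genes, 4 were higher in the CA2-3 spots in all sections, and 2 were lower. The share of higher genes was 12.4% over all genes with a UMI there and 21.5% over genes of at least 20 CPM. Rgs14, a regulator of G protein signalling that limits plasticity in CA2, was at 41.3, 22.6, 28.5 and 27.6 CPM, above the other spots (11.7 to 13.7 CPM) and in each section below the CA1 spots (37.7 to 54.4 CPM). Amigo2, an adhesion molecule, was at 60.2, 56.5, 45.9 and 61 CPM against 30.7 to 40.2 in the other spots. Pcp4, a calmodulin regulator also abundant outside the hippocampus, was lower, at 498, 574, 407 and 379.8 CPM against 1005 to 1288. Avpr1b, the vasopressin receptor of CA2, had UMIs in 2 of the 4 sections (1, 0, 1 and 0 UMIs). The spots were therefore mainly CA3 by these genes, with some CA2.

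Markers of the neighbouring fields were lower than in those fields themselves. The summed CPM of 8 CA1 genes was 308, 249, 309 and 228 in the CA2-3 spots and 2687 to 3177 in the CA1 spots, where Wfs1, an endoplasmic reticulum membrane protein, alone was at 986 to 1228 CPM against 37.7 to 79.2 in the CA2-3 spots. The summed CPM of 7 DG genes was 302, 443, 361 and 336 in the CA2-3 spots and 1797 to 2358 in the DG spots, but in each section above the other spots (245, 249, 273 and 296). Of the 7 DG genes Dsp, C1ql2 and Lct were higher than in the other spots in 4 of 4 sections and 0 were lower in all. Of the 8 CA1 genes 6 were lower than in the other spots in every section. Prox1, the transcription factor of granule cells, was at 106, 151, 106 and 109 CPM in the CA2-3 spots. The 4 genes of hilar mossy cells were mixed. Csf2rb2 had UMIs in HF section 1 only (0, 0, 1 and 0 UMIs). Drd2 and Calcrl were at means of 3.76 and 7.87 CPM, above the other spots in 0 and 1 of 4 sections. Ajap1 was at a mean of 128 CPM, above the other spots in 3 sections, the DG spots in 4 and the CA1 spots in 2. The spots for CA1 and DG were chosen by some of these genes, so the contrast is a description.

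Glial and vessel genes were lower in the CA2-3 spots than in the other spots of the sections, and in part higher than in the other hippocampal fields. All 14 oligodendrocyte genes were lower in 4 of 4 sections, with a summed CPM of 11459.6, 11255, 10319 and 7473 against 22328 to 28195 in the other spots. In the same order it was 12581, 9069, 8119.9 and 6854 in the CA1 spots and 10689, 9278, 6730.1 and 5406 in the DG spots, so the CA2-3 spots were above CA1 in 3 sections and above DG in 4. The astrocyte sum was 2871, 2876, 3090.3 and 2432 in the CA2-3 spots, above the CA1 spots (2589, 2342, 2773 and 1826) in 4 of 4 sections. All 9 astrocyte, 8 microglia and 6 measured endothelial genes were also lower than in the other spots in every section. Of 10 interneuron genes 9 were lower. The exception was Cck, the cholecystokinin precursor, at 1451, 1398, 1163 and 1296 CPM against 763 to 884. In sums over spots, fewer cells of a type and less RNA per cell cannot be told apart.

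Position in the tissue was not used by the rule, and the CA2-3 spots lay together. In the 4 sections 30, 28, 22 and 27 of the 35 spots had another CA2-3 spot among their 6 neighbouring positions (76.4% ± 9.72, SD, n = 4 sections). The largest connected patch held 30, 21, 20 and 27 spots, or 70% of all 140, and spanned 12, 11, 8 and 16 positions. In the map of positions it ran as a curved band beside and below the band of CA1 spots and ended next to the DG spots in each section. The other 42 spots were mostly single, 5, 7, 13 and 8 per section, and some of those in MF section 2 and HF section 1 lay far from the hippocampus. Moran's I, the deposited score of how far neighbouring spots of a section resemble each other, was 0.52 to 0.69 for Hpca and 0.17 to 0.28 for Bok, and 0.066 to 0.086 for Grik4 and 0.059 to 0.108 for Ptgs2, which had few UMIs per spot.

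**Figure D1:**
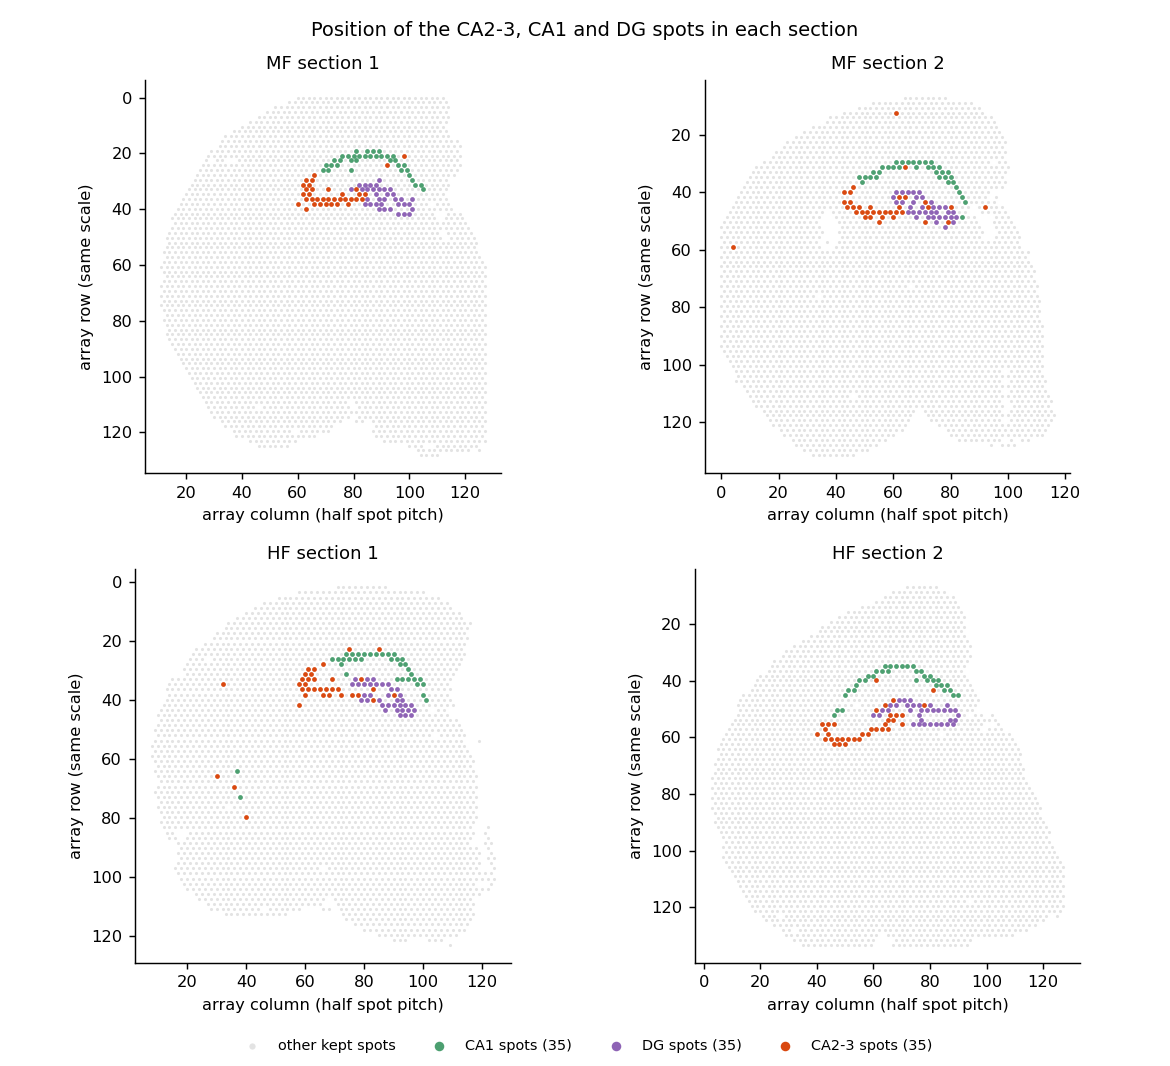
Array positions of the 35 CA2-3 spots (orange), 35 CA1 spots (green) and 35 DG spots (purple) among the other kept spots (grey) of each section, with array column (neighbours in a row are 2 columns apart) on the x axis and array row on the y axis. The largest orange patch holds 30, 21, 20 and 27 spots in MF section 1, MF section 2, HF section 1 and HF section 2.

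The patch and the scattered spots differed in composition. Of the 98 spots in the largest patches, 90 had at least 2000 CPM of the 9 CA3 genes, and of the 42 outside them 9 did. The median spot of the patch held 3766, 4055, 4228 and 4232 CPM of the CA3 genes, and the median spot outside it 1361, 1139, 1154 and 580.0 CPM. DG genes at 1000 CPM or more marked 14 CA2-3 spots, of which 13 lay outside the patches, and CA1 genes at that level marked 3. Over all CA2-3 spots the share with at least 2000 CPM of CA3 genes was 70.7% (SD 8.85, n = 4 sections). It was 84.0% with the 25 highest spots per section and 55.5% with 50. In the plot of single spots most of those outside the patch were low for CA3 genes in all sections, and part of them were high for DG genes. Spots under 2000 CPM of CA3 genes had fewer UMIs (median 19735, 19155, 9697 and 9193) than the rest (52295, 26107, 20078 and 28169) and more oligodendrocyte RNA (median 27639, 12756, 12665 and 14262 CPM against 10189, 8875, 7599 and 5773). The part of depth in these differences was not tested.

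**Figure D2:**
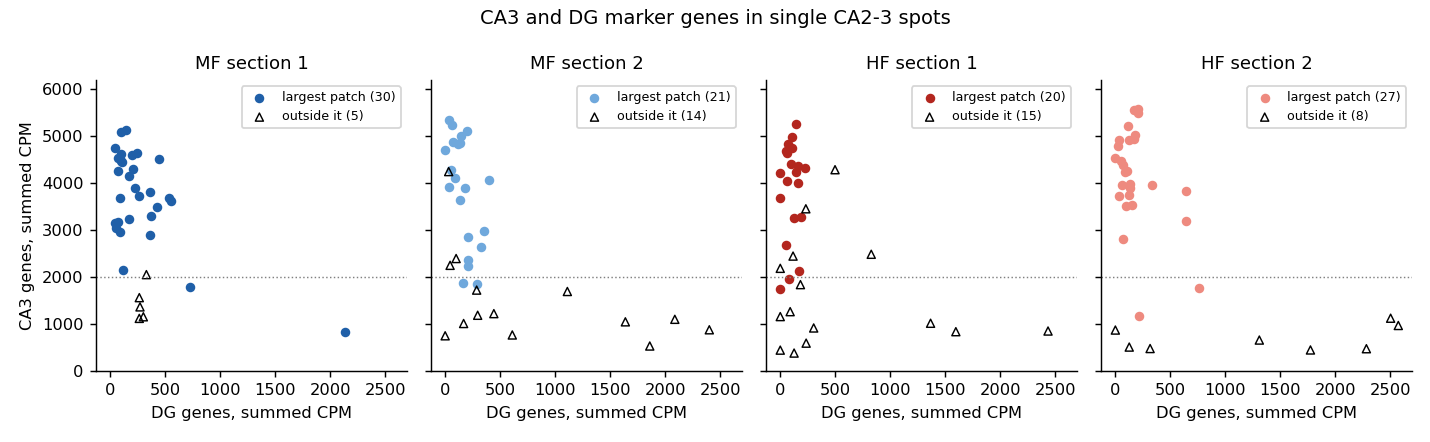
Summed CPM of 9 CA3 genes (y axis) against summed CPM of 7 DG genes (x axis) for every CA2-3 spot of each section, with filled circles for the largest patch and open triangles for spots outside it. Of the 98 spots in the patches 90 lie on or above the dotted line at 2000 CPM, and of the 42 outside 9 do.

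CA2 genes varied widely between the CA2-3 spots. The spot highest for the 11 CA2 genes had 3101, 2605, 3181 and 2608 CPM of them, against a median of 789, 897, 536 and 474 over the CA2-3 spots. These top spots also carried CA3 genes, at 2956, 2246, 3274 and 2803 CPM. The 3 highest spots of each section, 12 of the 140, held 65 of 130 Rgs14 UMIs and 112 of 229 Amigo2 UMIs of the CA2-3 spots, which the choice fixes in part, since both genes are in the sum. In 3 sections the highest spot lay in the largest patch, and in MF section 2 it lay 3 positions away from it. The highest and the next highest spot were 1, 25, 2 and 12 positions apart. In MF section 2 the next highest spot held 1 Rgs14, 0 Amigo2 and 9 Pcp4 UMIs. In HF section 2 it held 0, 0 and 17. Within the largest patch the CA2 and CA3 sums ran against each other, with Spearman's rho of −0.81 over 30 spots, −0.63 over 21, −0.40 over 20 and −0.21 over 27. Spots of a section share a library, and Rgs14 in the top spots rested on 23, 3, 2 and 8 UMIs. Pcp4, also abundant outside the hippocampus, was the largest part of the CA2 sum (mean 465 CPM over the 4 sections). A high sum therefore need not mean Rgs14 or Amigo2, and the part of Pcp4 in these correlations was not tested.

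Synaptic genes differed between the CA2-3 spots and the rest of the section in both directions. Among 21 glutamate receptor genes, 11 were higher in 4 of 4 sections, beside 12.4% of all genes with a UMI in these spots and 21.5% of those with at least 20 CPM. Another 8 were lower, and the share of all genes that were lower was not counted. Their summed CPM was 5245, 5283, 5454 and 5531 in the CA2-3 spots and in each section higher in the CA1 spots (6878 to 7835) and the DG spots (5356 to 5905). Neto1, an auxiliary subunit that slows kainate receptors at the mossy fibre synapse, was at 262, 221, 315 and 352 CPM against 73.4 to 89.7 in the other spots, 34.5 to 77.6 in the CA1 spots and 78.9 to 119 in the DG spots. Grik5, the other high-affinity kainate subunit, was at 364, 359, 353 and 379.8 CPM against 234 to 271 in the other spots and 357 to 393 in the DG spots. Gria1, an AMPA receptor subunit, was at 954, 996, 961 and 978 CPM against 412 to 425, below the 1520.2 to 1715 CPM of the CA1 spots and the 1188 to 1368 CPM of the DG spots. Grin2a, an NMDA receptor subunit, was at 360.1, 359, 421 and 363 CPM against 169 to 195, and in each section below the CA1 spots (709 to 838 CPM) and the DG spots (403 to 443 CPM). Of the low ones, the kainate subunit Grik3 was at 24.2, 22.6, 20.6 and 15 CPM against 51.4 to 55.8 and the NMDA subunit Grin3a at 21.8, 26.4, 23.8 and 19.6 CPM against 75.1 to 83.5. Of 10 genes of the mossy fibre synapse 7 were higher and 2 lower. Nptx1, a pentraxin that gathers AMPA receptors, was at 723, 630.4, 697 and 807 CPM against 133 to 152. Bdnf, a neurotrophin, was at 165, 137, 163 and 219 CPM against 54.5 to 69.8. Hapln4, a link protein of perineuronal nets, was at 195, 165, 188 and 184 CPM, above the other spots (90.7 to 109.7 CPM), the CA1 spots (44.4 to 70.4 CPM) and the DG spots (17.9 to 41.8 CPM). Of 11 measured genes of prostaglandin synthesis and signalling other than Ptgs2, 6 were lower in every section. Ptger4, a prostaglandin E2 receptor, was the 1 above the other spots in every section, at 1.77, 2.51, 3.17 and 2.30 CPM against 1.61, 2.14, 1.57 and 2.21 and from 3, 2, 2 and 2 UMIs, too few to order.

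Among 7685 genes with a mean of at least 20 CPM in the CA2-3 spots, 160 (2.08%) were at least 2-fold higher than in the other spots in all sections, the genes of the rule included. Without the genes of the rule, the 25 leading genes had log2 ratios from 2.29 to 3.26 (1 CPM added to both levels). Set against the other hippocampal fields, most were at least 2-fold above 1 of them in every section but not above the other. Of the 25, 12 were at least 2-fold above the DG spots in 4 of 4 sections and above the CA1 spots in fewer, among them Klk8 (neuropsin, a protease of synaptic plasticity), Neurod6 (a transcription factor of pyramidal cells) and Lpl (lipoprotein lipase). Another 8 were so above the CA1 spots and in fewer sections above the DG spots, among them Il16, Ccbe1, Kcng2 and Nptx1. Npy2r, Rnf182 and Ccnd2 averaged more than 2-fold above both fields but not in every section. Their mean log2 ratios to CA1 were 1.05, 1.54 and 3.16, and to DG 1.43, 1.42 and 1.34. In 4 of 4 sections 3 of the 25 exceeded both at least 2-fold. Homer3, a postsynaptic scaffold that binds group I metabotropic glutamate receptors, was at 172, 152, 138 and 228 CPM against 21.3 to 37.7 in the CA1 spots and 40.6 to 56.3 in the DG spots. Tnfaip8l3, a phosphoinositide transfer protein, was at 59, 51.5, 64.9 and 70.2 CPM against 13.6 to 15.2 and 5.11 to 17.8. Prss35, a protease-like protein, was at 33.7, 32.6, 36.4 and 32.2 CPM against 8.21 to 17.4 and 3.81 to 8.23. For all 3 the lowest CA2-3 section lay above the highest section of both other fields. Spink8 was 2.30 ± 0.12 (SD, n = 4) above the other spots on the log2 scale and yet lower than in the CA1 spots, which were chosen for it.

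**Figure D3:**
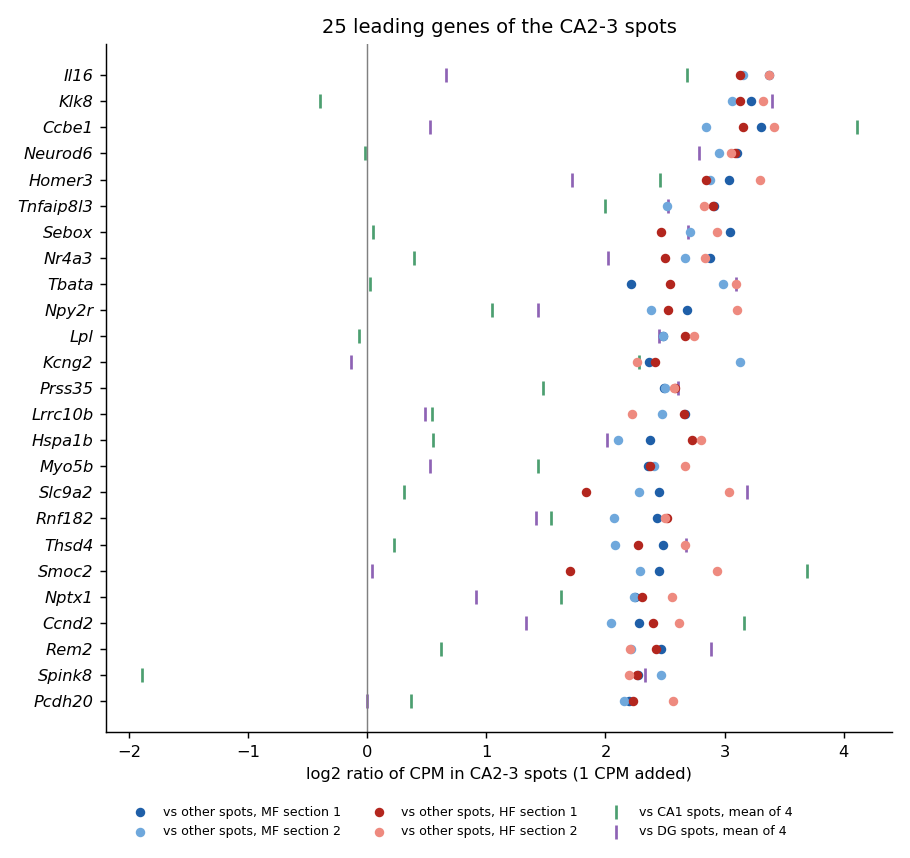
Log2 ratio (x axis) of CPM in the CA2-3 spots to other spots for the 25 leading genes (rows), with 1 CPM added to both, as 1 circle for each section (blue, MF; red, HF), and to the CA1 spots (green bar) and DG spots (purple bar) as the mean of 4 sections. Homer3, Tnfaip8l3 and Prss35 are the 3 genes at least 2-fold above both fields in all sections.

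The diets were compared on the UMIs summed over the 35 CA2-3 spots of each section, to ask which genes the maternal diet changed in this field. Of 9183 genes tested, 15 (0.163%) passed edgeR's quasi-likelihood test at a p-value under 0.05 after Benjamini-Hochberg adjustment with a change of 1.2-fold or more, 4 (0.0436%) higher and 11 (0.120%) lower in HF. The 4 higher genes were Egr1, Egr4, Arc and Nr4a3, all genes that neurons induce within a short time of activity. The 11 lower genes were Pmch, Tac2, Syt9, Ttr, Calb2, Zic1, Apod, Enpp2, Hbb-bs, Hba-a2 and Mt2, several of which mark tissue next to the hippocampus or blood. DESeq2 called 0 genes and had 88 at an unadjusted p-value under 0.05, where edgeR had 541. Without MF section 2 edgeR called 0 genes and had 195 at an unadjusted p-value under 0.05, without HF section 1 it called 117, and in the largest patches alone 52, with 14 of the 15 among them.

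**Figure D4:**
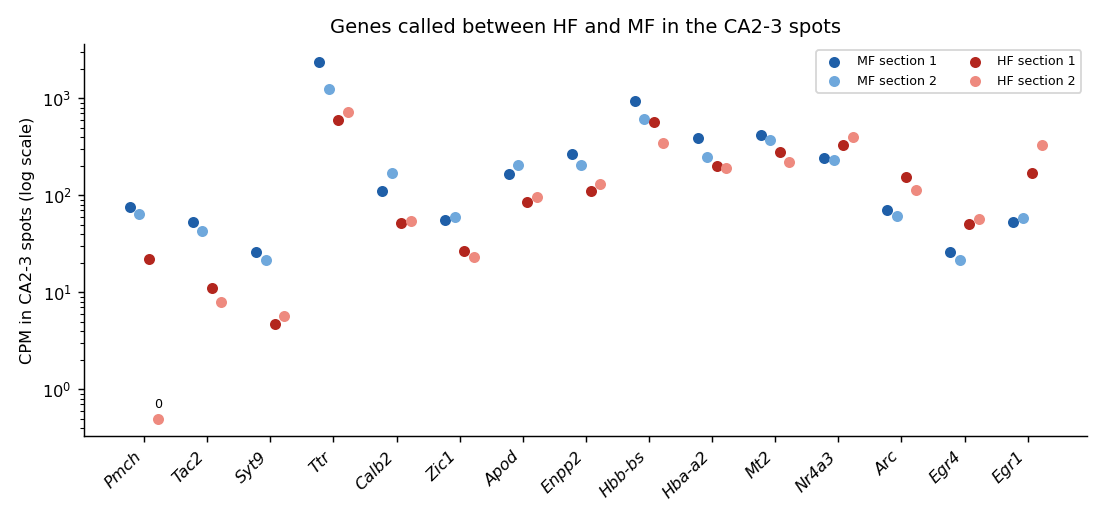
CPM in the summed CA2-3 spots (y axis, log scale) of the 15 genes called between HF and MF (x axis), 1 point per section, with the value of 0 for Pmch in HF section 2 drawn at the bottom and marked 0. Both HF sections lie below both MF sections for the first 11 genes and above them for the last 4.

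Egr1, a zinc finger transcription factor, was at 53.1, 57.8, 171 and 329 CPM, and both HF sections lay above both MF sections, with a log2 fold change of 2.25 ± 0.20 (SE, n = 2 against 2, edgeR adjusted p = 4.17e-12). Arc, which encodes a protein that removes AMPA receptors from synapses, was at 71.4, 61.5, 154 and 114 CPM (0.98 ± 0.18, adjusted p = 0.00197). Egr4, another factor of the Egr family, was at 26, 21.3, 50.7 and 57.5 CPM (1.19 ± 0.27, adjusted p = 0.0315). Nr4a3, an orphan nuclear receptor and one of the 25 leading genes of these spots, was at 245, 231, 328 and 396 CPM (0.64 ± 0.14, adjusted p = 0.0208). HF section 2 was highest for Egr1, Egr4 and Nr4a3 and HF section 1 for Arc. Of 18 immediate early genes 12 passed the filter on low counts, which a gene can pass through 1 diet alone, 11 of them with an estimate above 0, 8 with an unadjusted p-value under 0.05, beside 2.80% of all genes tested that were higher at this p-value. Their median was 0.55, beside 50.8% above 0 and a median of 0.0049 over all genes tested. Without the filter 14 of 18 were above 0 (median 0.51). Dusp6, a phosphatase of ERK, was at 53.1, 49, 105 and 79.4 CPM, with 0.84 ± 0.21 and an adjusted p of 0.101, and Egr3 at 64.9, 75.3, 83.9 and 105 CPM, with 0.50 ± 0.20 and 0.642. Neither was called, nor was Homer1 at 165, 178, 198 and 166 CPM (0.11 ± 0.15, adjusted p = 0.977), whose sections overlapped. Ptgs2 is itself such a gene and helped to choose the spots. With spots chosen by Grik4 and Iyd alone, 9 genes were called, 8 of them among the 15, and 12 of 13 immediate early genes tested were above 0 (median 0.60, 3 called).

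The 4 genes had estimates above 0 outside CA2-3 as well. For Egr1 the log2 fold change was 2.61 in the CA1 spots, 2.00 in the DG spots and 2.21 in the other spots, Arc 0.61, 0.53 and 0.87, Nr4a3 0.67, 0.42 and 0.71, and Egr4 0.67, 0.33 and 0.50. Of these, edgeR called only Egr1, in the CA1 and DG spots (adjusted p = 2.37e-05 and 3.94e-04). In all it called 2 of 8737 genes in the CA1 spots (1 lower), 17 of 9700 in the DG spots (15 lower) and 0 of 14933 in the other spots. Of the 11 genes lower in the CA2-3 spots, Pmch, Mt2, Hba-a2, Hbb-bs and Apod were also called lower in the DG spots. Pmch was called lower in the CA1 spots too. Tac2, Syt9, Ttr, Calb2, Zic1 and Enpp2 were called in none of the other sets. The median of the immediate early genes tested was 0.53, 0.33 and 0.49 in these 3 sets of spots, which come from the same 4 sections. No immediate early gene was called in the test of whether the diet difference in CA2-3 differed from that in CA1 and DG, or from that in the other spots. For Egr4 that difference was 0.70 ± 0.31 on the log2 scale to CA1 and DG (SE, adjusted p = 0.945) and 0.69 ± 0.27 to the other spots (adjusted p = 0.926).

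The cAMP response element, a sequence bound by CREB after activity, has the core TGACGT, which reads ACGTCA on the other strand. The promoters of Egr4 and Nr4a3, called higher in HF, and of Ptgs2 are shown because they hold this core. They run from 250 bases before to 50 after the RefSeq gene start (GRCm38.p6) and are printed 5′ to 3′ along the gene with the core in capitals. Egr4 lies on the minus strand, chr6:85513540-85513839, Nr4a3 on the plus strand, chr4:48045055-48045354, and Ptgs2 on the plus strand, chr1:150099781-150100080.
Egr4: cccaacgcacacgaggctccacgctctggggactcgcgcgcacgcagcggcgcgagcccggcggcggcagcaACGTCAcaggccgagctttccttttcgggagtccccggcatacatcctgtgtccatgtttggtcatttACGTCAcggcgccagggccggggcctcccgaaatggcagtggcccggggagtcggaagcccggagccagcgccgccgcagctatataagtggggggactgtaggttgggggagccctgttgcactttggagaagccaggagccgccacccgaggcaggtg
Nr4a3: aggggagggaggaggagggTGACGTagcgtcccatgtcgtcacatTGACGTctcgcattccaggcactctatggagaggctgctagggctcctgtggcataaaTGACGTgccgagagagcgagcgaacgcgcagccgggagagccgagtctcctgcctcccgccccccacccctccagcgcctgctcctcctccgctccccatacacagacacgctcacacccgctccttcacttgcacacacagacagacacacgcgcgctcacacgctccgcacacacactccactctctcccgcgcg
Ptgs2: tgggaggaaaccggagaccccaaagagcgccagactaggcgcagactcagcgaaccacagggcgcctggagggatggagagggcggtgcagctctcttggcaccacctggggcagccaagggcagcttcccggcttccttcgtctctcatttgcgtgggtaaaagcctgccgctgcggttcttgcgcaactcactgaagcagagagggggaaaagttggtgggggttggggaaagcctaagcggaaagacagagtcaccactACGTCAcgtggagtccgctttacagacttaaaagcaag
The core begins at −178 and −110 in Egr4, at −231, −205 and −147 in Nr4a3 and at 12 in Ptgs2, counted from the gene start. It was found in 2468 of 32851 promoters of the same length (7.51%), and in neither Dusp6 nor Grik4. Arc and Egr1 were not searched, having no entry in the promoter table used here. A match is a stretch of letters and not a measured binding site.

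Among the lower genes, several are markers of tissue that borders the hippocampus. Ttr, the transthyretin made by the choroid plexus, was at 2378, 1244, 599 and 715 CPM, with a log2 fold change of −1.44 ± 0.16 (SE, edgeR adjusted p = 1.96e-08), while in the other spots it was at 2387, 2264, 3401 and 3772 CPM and higher in both HF sections. Across single CA2-3 spots the median was 2501, 932, 496 and 684 CPM and the highest 7406, 22821, 2767 and 3474. The median distance to the nearest spot with at least 20000 CPM of Ttr was 8, 11, 9 and 7 positions, and a CA2-3 spot of MF section 2 was itself such a spot. The other choroid plexus genes were low in the CA2-3 spots, with Folr1 at 13.6, 11.3, 1.58 and 8.06 CPM, Kl at 3.54, 2.51, 1.58 and 4.60 CPM and Clic6 at 10.0, 6.28, 6.34 and 9.21 CPM, below the other spots in every section. For Ttr MF section 1 was thus high in most spots, and MF section 2 carried 1 very high spot. Enpp2 (autotaxin), a lysophospholipase also abundant in choroid plexus, was at 264, 207, 111 and 130.1 CPM (−0.95 ± 0.16, adjusted p = 3.27e-04). Calb2 (calretinin), a calcium buffer of midline thalamus and of mossy cells, was at 112, 172, 52.3 and 54.1 CPM (−1.32 ± 0.21, adjusted p = 7.00e-05). Zic1, a zinc finger transcription factor of the septum and dorsal diencephalon, was at 56.1, 60.3, 26.9 and 23 CPM (−1.19 ± 0.27, adjusted p = 0.0315). Both HF sections were at about the same level for these genes and below both MF sections. Within the hippocampus, Ttr, Enpp2, Calb2 and Zic1 were lower in the CA2-3 than in the DG spots in every section. The mean log2 ratios to DG were −1.10, −0.52, −1.29 and −0.80. Against the CA1 spots Ttr and Zic1 were higher in 4 sections, Calb2 in 3 and Enpp2 in 2.

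Tac2, the neurokinin B precursor, which marks the medial habenula, was at 53.7, 42.7, 11.1 and 8.06 CPM (−2.37 ± 0.36, adjusted p = 4.21e-05). It was lower than in the DG spots in every section (mean log2 ratio −1.45) and above the CA1 spots in 1. The summed CPM of 8 medial habenula genes, a list made after the values were seen, was 195, 139, 76 and 105 in the CA2-3 spots and 217, 219, 250.4 and 175 in the other spots, and 5 of the 8 were lower in the CA2-3 spots in every section. Pmch was at 75.6, 64, 22.2 and 0 CPM, from 128, 51, 14 and 0 UMIs (−2.88 ± 0.39, adjusted p = 3.58e-06), and the order of the sections was that of the other spots, where HF section 2 had almost none. Syt9, a synaptotagmin of secretory vesicles, rested on 44, 17, 3 and 5 UMIs (−2.13 ± 0.49, adjusted p = 0.0347). The part of the plane of each section in these values was not tested.

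Blood and glial genes made up the rest. The haemoglobin genes Hbb-bs and Hba-a2 were at 932, 618, 573 and 349.9 and 394, 249.9, 203 and 191 CPM (−0.76 ± 0.16, adjusted p = 0.00988, and −0.72 ± 0.16, adjusted p = 0.0208). For Hbb-bs the gap between MF section 2 and HF section 1 was smaller than the gap between the sections of either diet. The paralogues share long stretches of sequence, and whether the probes separate them was not tested. Apod, a lipid carrier of oligodendrocytes and vessel walls, was at 168, 206, 85.5 and 96.7 CPM (−0.97 ± 0.17, adjusted p = 5.90e-04). Mt2, a zinc-binding metallothionein, was at 417, 373, 282 and 222 CPM (−0.64 ± 0.14, adjusted p = 0.0208), and its log2 fold change was −0.92 in the CA1 spots, −0.90 in the DG spots and −0.71 in the other spots. Btaf1, a regulator of the TATA-binding protein, missed the threshold at 63.2, 91.7, 45.9 and 25.3 CPM (−1.08 ± 0.26, adjusted p = 0.0536), with −0.75, −0.82 and −0.92 in the same 3 sets.

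**Figure D5:**
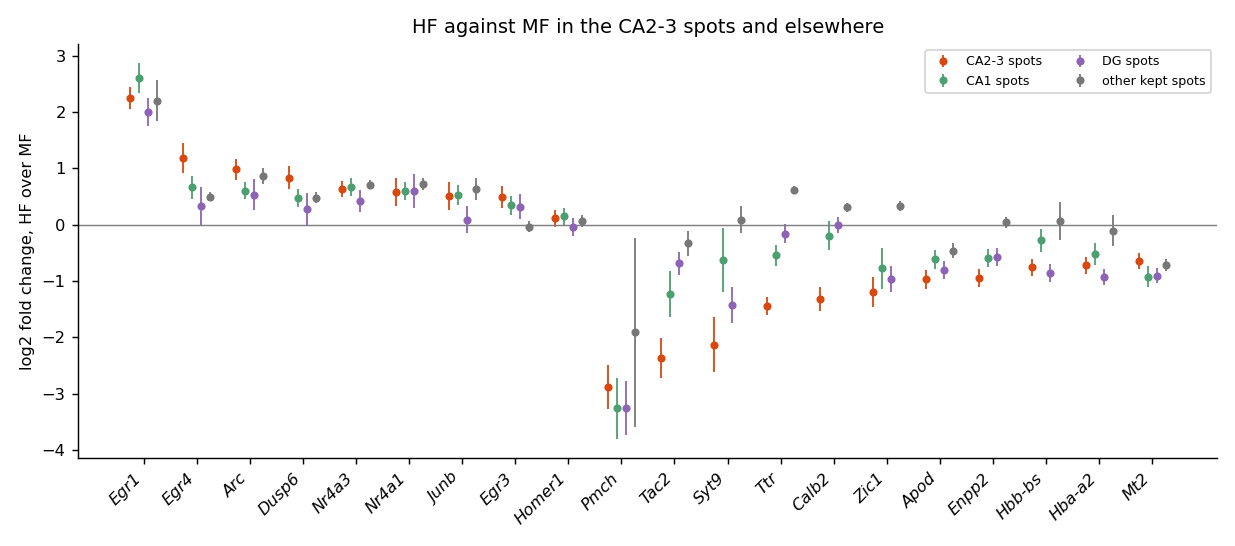
Log2 fold change of HF over MF (y axis, points, with SE bars from edgeR) in the CA2-3, CA1, DG and other kept spots for 9 immediate early genes, the 4 called ones included, and the 11 genes called lower in the CA2-3 spots (x axis). Egr1 lies between 2.00 and 2.61 in all 4 sets, while Ttr is −1.44 in the CA2-3 spots and 0.61 in the other spots. Of the 12 immediate early genes tested in the CA2-3 spots, Nr4a2 (−0.03 ± 0.35), Btg2 (0.33 ± 0.49) and Fosl2 (0.45 ± 0.35) are not drawn.

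Oligodendrocyte genes had estimates below 0 in HF, and none of them was called. This held for all 14 (median −0.38), beside 49.2% of all genes tested. Of the 14, 11 had an unadjusted p-value under 0.05, beside 3.09% of all genes tested that were lower at this p-value. In 12 both HF sections lay below both MF sections, as for 19.4% of all genes tested. Mbp, the myelin basic protein, was at 4042, 3971, 3738 and 2824 CPM (−0.26 ± 0.13, edgeR adjusted p = 0.841). HF section 2 was lowest for it, and the 2 MF sections and HF section 1 lay close together. Without HF section 2, 12 of the 14 were below 0 (median −0.22), and without HF section 1 all 14 (median −0.57). With 25 spots per section 13 were tested and 8 called, beside 39 of all 8495 genes tested. In the largest patches 13 were tested and 7 called, beside 52 of all 8406. The median of the list was −0.61 in the CA1 spots, −0.81 in the DG spots and −0.25 in the other spots.

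The genes that define the field and its synapses were not called between the diets. Of 8 CA3 genes tested 6 were above 0 (median 0.10), with Chgb at 0.11 ± 0.13 and Bok at 0.10 ± 0.16, and the diets overlapped in all 8. Of 8 CA2 genes 2 were above 0 (median −0.13), and Pcp4 was the one with an unadjusted p-value under 0.05 (−0.41 ± 0.13, adjusted p = 0.421). Of 20 glutamate receptor genes 12 were above 0 (median 0.04). Neto1, at 262, 221, 315 and 352 CPM, had an estimate of 0.48 ± 0.14 (adjusted p = 0.258) and Grin2c, at 40.1, 37.7, 28.5 and 10.4 CPM, one of −1.08 ± 0.34 (adjusted p = 0.41). Of 10 mossy fibre synapse genes 8 were above 0 (median 0.15), with Bdnf at 0.36 ± 0.16 (adjusted p = 0.745). In each of these lists 0 genes were called by edgeR, beside 15 of all 9183 genes tested (0.163%). At that share short lists would mostly hold no call, so this says little about the lists themselves.

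Folate and one-carbon genes showed no call either, beside calls for 0.163% of all genes tested. Of 28 genes 17 were tested, 5 above 0 and 12 below (median −0.05), and 0 had an unadjusted p-value under 0.05, where 541 of all 9183 did. At these shares a list of 17 genes would hold few or no such genes, so this says little about the list itself. Mat2a, which makes S-adenosylmethionine, was at 84.4, 62.8, 57 and 80.6 CPM (−0.09 ± 0.21, adjusted p = 0.991). The error of Mat2a leaves room for a 1.2-fold change in either direction. Of 6 DNA methylation genes tested 0 were called, with Dnmt3a, a de novo methyltransferase, at 0.08 ± 0.17 and Tet1, which oxidises methylcytosine, at −0.61 ± 0.36 (adjusted p = 0.882). Among 9 astrocyte genes 7 were below 0 (median −0.19), with Aqp4, the water channel of astrocyte endfeet, at −0.93 ± 0.26 (adjusted p = 0.242).

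Whether the diet difference of the CA2-3 spots differed from that of CA1 and DG was tested over 10123 genes with the section as a block, and 3 (0.0296%) were called, 1 higher (0.00988%) and 2 lower (0.0198%) in CA2-3. For Ttr the difference was −1.07 ± 0.18 on the log2 scale (SE, edgeR adjusted p = 0.00145), since its change was −0.54 in the CA1 and −0.16 in the DG spots. For Calb2 it was −1.17 ± 0.24 (adjusted p = 0.0297), with −0.19 and 0.00 in those spots. Nnat, an imprinted gene for a small membrane protein of neurons, differed the other way by 0.67 ± 0.13 (adjusted p = 0.0147). Its change was 0.32 ± 0.13 in the CA2-3 spots, not called (edgeR adjusted p = 0.688), −0.63 in the CA1 and −0.05 in the DG spots. Nnat was at 907, 885, 1026 and 1158 CPM in the CA2-3, 127, 154, 105 and 76.8 in the CA1 and 382, 409, 393 and 366 in the DG spots. DESeq2 called 0 of the 3, and the calls numbered 1 without either MF section or without HF section 2, and 10 without HF section 1.

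Against all other spots, the same test called 15 of 14423 genes (0.104%), 2 higher (0.0139%) and 13 lower (0.0901%) in the CA2-3 spots. Ttr had the smallest p-value (−2.0 ± 0.12, adjusted p = 2.43e-56). The 5 with the largest negative difference were Gpr151 (−2.83 ± 0.69), an orphan receptor of the habenula, Sod3 (−2.40 ± 0.58), the secreted superoxide dismutase, Syt9 (−2.22 ± 0.47), Tac2 (−2.0 ± 0.36) and Ttr, with adjusted p-values from 2.43e-56 to 0.0392. Gpr151 and Sod3 rested on 31, 7, 1 and 2 and 32, 13, 3 and 2 UMIs. Rabgap1l, a Rab GTPase-activating protein, was the higher one with many UMIs, at 218, 205, 289.9 and 306 CPM in the CA2-3 and 111, 109.8, 99.6 and 116 in the other spots (0.56 ± 0.13, adjusted p = 0.0336). Npw, a neuropeptide precursor, had 6, 3, 4 and 10 UMIs in the CA2-3 spots and 7.06, 8.94, 5.41 and 0.456 CPM in the other spots (3.04 ± 0.73, adjusted p = 0.0336), and HF section 2 was lowest outside the field and highest within it. DESeq2 called 5 of these genes.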

How the data were processed

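Visium-FFPE libraries of 4 coronal sections were analysed. With Space Ranger 2.0.0 the authors matched probe reads to mm10, and the values are deposited raw UMI counts of 19465 features per spot, without normalization. The deposited table of spatial autocorrelation also holds Moran's I, a score per feature that was left as given, and p-values and a mean signal that were not used.

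A spot needed 500 UMIs and 250 genes to be kept, the limits of the study's methods, and 18 of 13470 fell short. The CA2-3 spots and the gene lists were chosen with earlier results of these data known. UMIs were summed per section and tested with edgeR 4.0.16 (R 4.3.3), quasi-likelihood, TMM and filterByExpr. A call needed a change of 1.2-fold and, after Benjamini-Hochberg adjustment over all genes tested, a p-value under 0.05. The genes that chose the spots were left out of the tests, as were the 22 features that share a symbol from the named genes. Standard errors are the log2 fold change over the square root of F. Genes named are those of the rule and lists, all genes called between the diets, up to 5 per direction of the difference tests and the 25 leading genes. Recovery was measured on simulated counts with a dispersion (spread between sections beyond counting) of 0.00624 and 200 genes changed 2-fold. For HF against MF 91.0% were recovered with 2 false calls. For the difference from CA1 and DG it was 75.0% with 7, and for the difference from the other spots 84.5% with 3. Recovery at other dispersions was not tested, so these shares hold for that setting alone.

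Alternatives were DESeq2 1.42.0, library size alone, no filter, a replicate block, thinning to 5000 UMIs per spot, other numbers of spots or candidates, spots chosen without Ptgs2, spots with neighbours, a Wilcoxon test over single spots and each section left out. The largest patch was added after the data were seen, as were other numbers of spots for the share of spots high for CA3 genes. Gene and promoter positions come from GENCODE vM21 (19451 features matched) and RefSeq.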

Additional observations from a re-analysis of the deposited data

Results flagged for a closer look

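The diet difference was not the same in the CA2-3 spots as in other tissue for some genes, by the test of the difference itself (edgeR's quasi-likelihood test, section as a block, n = 2 against 2). Against CA1 and DG these were 3 genes, with log2 differences of 0.67 for Nnat, −1.17 for Calb2 and −1.07 for Ttr.

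Against the other spots they were 15 genes. Genes of choroid plexus, septum and diencephalon had log2 differences of −2.0 (Ttr), −1.0 (Enpp2), −1.62 (Calb2), −1.53 (Zic1), −2.0 (Tac2) and −2.83 (Gpr151). Each of these genes was also lower in the CA2-3 than in the DG spots in every section. The haemoglobin genes had −0.78 (Hbb-bs) and −0.58 (Hba-a2). Sod3 had −2.40 and Syt9 −2.22. Col1a2, a collagen of meninges and vessels (−1.88), Igfbpl1, an insulin-like growth factor binding protein relative (−1.79), and Id4, an inhibitor of differentiation factor (−1.06), lie outside the naming rule and are named after their values were seen. Col1a2 was at 16.5, 45.2, 11.1 and 3.45 CPM in the CA2-3 spots, Igfbpl1 at 22.4, 42.7, 12.7 and 12.7 CPM and Id4 at 99.2, 94.2, 55.4 and 59.8 CPM, so the 2 HF sections were below the 2 MF sections for each. Higher were Rabgap1l at 0.56 and Npw at 3.04.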

How the results depend on the processing

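Of the genes called by the 3 tests, none changed direction under a setting that gave it a value. Genes of the lists that were not called did, such as 2 of the 14 oligodendrocyte genes without HF section 2. Of the 15 calls between the diets, DESeq2 kept 0, library size alone 9, the replicate block 1 and thinning to 5000 UMIs 1 (of 4561 genes tested). With 25 spots per section there were 39 calls, with 50 spots 5, with 400 candidates 9, without Ptgs2 in the choice 9, with neighbouring spots only 83 and in the largest patches 52. The Wilcoxon test over single spots, which are not replicates, called 9. Leaving out 1 section gave 0 to 117 calls, 0 without MF section 2 and 117 without HF section 1. Beside the 3 calls of a difference from CA1 and DG, DESeq2 made 0 (42 genes at an unadjusted p-value under 0.05) and the largest patches gave 7, and leaving out 1 section gave 1 to 10. Beside the 15 calls of a difference from the other spots, DESeq2 made 5, thinning 2 and the largest patches 24, and leaving out 1 section gave 9 to 30. The log2 ratio of CA3 genes was 1.58 with 50 spots and 1.99 in the largest patches. With 25 spots 87.0% had a neighbour, and the share with at least 2000 CPM of CA3 genes was 84.0%, or 55.5% with 50. For each of these the cause was not tested.

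The difference between the 2 MF sections correlated at −0.068 with that between the 2 HF sections, by replicate number, over 9179 genes. Whether sections of the same number share a source of variation in some genes was not tested. A diet left with 1 section was assumed to vary like the other. The precision is limited by 2 sections per diet and, for low genes such as Syt9 and Npw, by a few UMIs.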
